A study of Canis lupus familiaris with 20 samples.

Results

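CAV1 and CAV2 encode caveolin-1 and caveolin-2, the coat proteins of caveolae, and their mRNA was measured in canine mammary cancer cells and canine macrophages that were grown together and then sorted. All probes of both genes were taken, by matching the array's transcript names to gene symbols: 1 probe of CAV1 (A_11_P0000020008) and 3 probes of CAV2 (A_11_P0000020174, A_11_P0000019790 and A_11_P052356, called here probes 1, 2 and 3 in that order). These are 4 of 43603 distinct probes on the array, of which 1648 carried a symbol, for 1045 genes. The 2 genes were chosen by their high ratios in the co-cultured macrophages, so every macrophage ratio and macrophage level of them below is a description with no test.

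Gene expression was measured on 20 two-colour arrays, each holding RNA of a co-culture in one dye and of the matching mono-culture in the other. The cancer cells were 5 canine mammary lines, CMT-U27 from a simple carcinoma, CMT-U309 from a spindle-cell tumour, P114 from an anaplastic cancer, and CMT-W1 and CMT-W2 from adenocarcinomas. The macrophages grew out of CD64-positive monocytes of healthy dogs' blood without added growth factors, and after at least 72 h they were only partly differentiated. The labels name no drug and no genetic change in any sample. Before co-culture the cancer cells were stained with the fluorescent dye CMTMR, and after it the stained cells (cancer cells) and unstained cells (macrophages) were separated by flow cytometry, whereas mono-cultures were scraped and not sorted. Each sorted population of each line was hybridised on 2 arrays with the dyes exchanged; a dye-swap pair counted as 1 replicate, which gave n = 5 for the cancer cells and n = 5 for the macrophages. How many separate macrophage mono-cultures there were is not stated, so a p-value may not hold all of that culture's variation, and the number of arrays limits the precision.

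Caveolae are small flask-shaped pits of the plasma membrane, rich in cholesterol. Caveolin-1 inserts into the inner leaflet and forms the oligomers of the coat, caveolin-2 joins it in mixed oligomers and needs it to reach the surface, and cavins, EHD proteins and pacsins complete the coat and neck. Caveolin-1 binds cholesterol and many signalling proteins. Both proteins are abundant in endothelial cells, fat cells, smooth muscle and fibroblasts, are found in myoepithelial and basal-like mammary cells, and are usually scarce in blood monocytes. In the gene table used for names, the genes stand next to each other, CAV2 after TES and CAV1 before MET. No sequence of the genes or probes was used here.

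The mono-cultures fitted their labels, and the sorted populations carried markers of each cell type. The summed level of 14 macrophage markers (log2 of the summed normalized signals) lay between 19.50 and 19.91 in the 5 mono-cultured macrophages and between 11.77 and 14.85 in the 5 mono-cultured cancer lines, while that of 6 epithelial markers was 12.53 to 12.89 in the former and 13.69 to 14.83 in the latter. After co-culture it was between 16.05 and 18.08 in the macrophages and between 14.29 and 19.12 in the cancer cells. The highest of these cancer cell values, 19.12, was that of CMT-U27, above all 5 co-cultured macrophage samples. Across 28670 probes tested in both cell types, the levels of the sorted CMT-U27 cancer cells correlated more closely with mono-cultured macrophages (r = 0.91) than with mono-cultured CMT-U27 (r = 0.83), while the other 4 sorted cancer cell samples were closer to their own mono-culture (r from 0.89 to 0.95) than to macrophages (r from 0.58 to 0.81). The sorted macrophages of CMT-U27 and P114 were closer to mono-cultured cancer cells (r = 0.87 and 0.92) than to mono-cultured macrophages (r = 0.82 and 0.81), and those of CMT-U309, CMT-W1 and CMT-W2 were about as close to each (r from 0.79 to 0.84). In all 5 co-cultures the sorted macrophages were closest to the cancer cells sorted beside them (r from 0.83 to 0.98). The labels of the sorted populations are used as given. The paper reports high purity after sorting. Its fluorescence microscopy saw no stained cells among the sorted macrophages and no unstained ones among the sorted cancer cells. Probes are not independent and the cultures of one line share arrays, so these are descriptions. In RNA from a sorted population, a larger share of cells of one type and more RNA per cell cannot be told apart.

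In the sorted macrophages, CAV1 was higher than in macrophages grown alone in each of the 5 co-cultures. The log2 ratio (co-culture to mono-culture, mean of the dye-swap pair) was 6.79 with CMT-U27, 5.02 with CMT-U309, 5.21 with P114, 6.14 with CMT-W1 and 6.0 with CMT-W2. The mean was 5.83 ± 0.72 (SD, n = 5), which corresponds to 56.9-fold. The 2 arrays of a pair differed by 0.01 to 1.08, and the widest gap was that of CMT-W2. With another background correction and dye normalization (normexp and loess) the mean was 3.48.

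The mono-culture channel was dim on many arrays. CAV1 was well above background on all 10 arrays of the co-cultured macrophages and on 5 of 10 arrays of the mono-cultured macrophages: both arrays of CMT-U309 and of P114 and 1 array of CMT-W2. For the pairs of CMT-U27 and CMT-W1, where it was above background on no array, the mono-culture value is a bound, set per array at the higher of the dimmest signal called above background and the probe's own signal. Against that bound CAV1 was at least 77.4-fold higher with CMT-U27 and at least 19.5-fold higher with CMT-W1.

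CAV2 was also higher in the sorted macrophages, but unevenly between lines and between its probes. On probe 1, the brightest of the 3, the log2 ratio was 4.76 with CMT-U27, 5.02 with CMT-U309, 7.0 with P114, 0.47 with CMT-W1 and 2.70 with CMT-W2, with a mean of 3.99 ± 2.49 (SD, n = 5). The value of CMT-W1 was the lowest, and its 2 arrays gave 0.98 and -0.05. On probe 2 the values were 4.87, 6.55, 8.28, 0.00 and 2.60 in the same order of lines, with a mean of 4.46 ± 3.26. The 0.00 of CMT-W1 on probe 2 was read on both arrays, where neither culture was well above background, so it is not a measured lack of change.

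Probe 3 gave a more even picture, with log2 ratios of 3.59, 3.38, 4.35, 4.0 and 4.88 in the same order and a mean of 4.04 ± 0.60 (SD, n = 5). It was above background on 6 of 10 arrays of mono-cultured macrophages, and on 0 of 2 with CMT-W2, where the ratio is bounded at 13.6-fold or more. For CMT-W1 the probes of CAV2 therefore disagreed, since probe 3 read 4.0 where probes 1 and 2 read at most 0.47. Probe 2 was above background on 0 of 10 arrays of mono-cultured macrophages and on 7 of 10 arrays of co-cultured ones. Its bound was at least 5.74-fold over the 5 co-cultures, from at least 1.66-fold with CMT-W2 to at least 85.5-fold with P114, and CMT-W1 gave no fold because neither culture was above background. With normexp and loess the means were 2.28, 1.27 and 1.91 on probes 1, 2 and 3, each lower than above and still above 0.

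**Figure D1:**
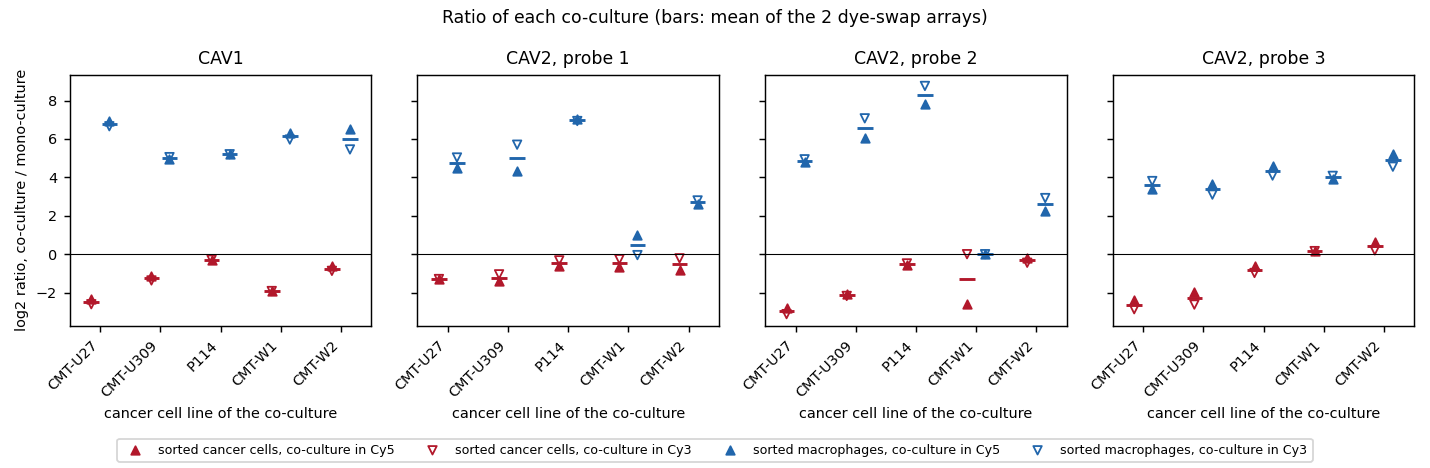
Log2 ratio, co-culture to mono-culture (vertical axis), for the 5 co-cultures (horizontal axis), 1 panel per probe, in sorted cancer cells (red) and sorted macrophages (blue). Triangles are single arrays and bars are means of the 2 dye-swap arrays. CAV1 lies between 5.02 and 6.79 in macrophages and between -2.47 and -0.29 in cancer cells, and CMT-W1 is near 0 on CAV2 probes 1 and 2 in macrophages but at 4.0 on probe 3.

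In the sorted cancer cells CAV1 fell. Its log2 ratio was -2.47 in CMT-U27, -1.24 in CMT-U309, -0.29 in P114, -1.92 in CMT-W1 and -0.75 in CMT-W2, so all 5 lines lay below 0, and the 2 arrays of a pair differed by at most 0.28. The mean ratio was -1.34 ± 0.34 (limma SE, n = 5; 95% interval -2.14 to -0.54), a level 2.52-fold lower than in mono-culture. limma's test against 0, adjusted over all 29710 probes tested, gave an adjusted p of 0.0438. CMT-U27 had the largest decrease and P114 the smallest. The call was lost when any single line was left out (adjusted p from 0.0633 without P114 to 0.113 without CMT-U27, with 0.0954 without CMT-U309, 0.0981 without CMT-W1 and 0.0728 without CMT-W2), while the ratio kept its sign; without CMT-U27, whose sorted cells carried the most macrophage marker signal, it was -1.05. It was also lost with normexp and loess (0.0709), without the filter on dim probes (0.0836) and with the co-culture in Cy5 alone (0.0660). The methods' test on the levels did not call it either (0.856). That test was rebuilt here from the paper's description as an unpaired comparison of co-culture with mono-culture levels. It ignores the pairing within a line, and its standard error for CAV1 was 0.95, against 0.34 in limma.

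CAV2 did not pass this test on any of its 3 probes. On probe 1 the log2 ratio was -1.29 in CMT-U27, -1.22 in CMT-U309, -0.47 in P114, -0.47 in CMT-W1 and -0.52 in CMT-W2. All 5 lines lay below 0, and the mean of -0.79 ± 0.24 (limma SE, n = 5) had a 95% interval from -1.35 to -0.24 and an adjusted p of 0.0665. On probe 2 the 5 values were -2.97, -2.12, -0.52, -1.29 and -0.32, with a mean of -1.44 ± 0.41 (SE), an interval from -2.39 to -0.50 and an adjusted p of 0.0564. The CMT-W1 value of probe 2 had no support, because the probe was above background on 0 of 2 arrays in either culture and the arrays read -2.57 and 0.00. On probe 3 the lines divided, with -2.64 in CMT-U27, -2.31 in CMT-U309 and -0.81 in P114 against 0.15 in CMT-W1 and 0.41 in CMT-W2, and the mean was -1.04 ± 0.49 (SE; interval -2.18 to 0.10; adjusted p 0.187).

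In all, 1 of the 4 caveolin probes was called in the cancer cells, in the downward direction. Over all probes tested there, 12.8% were called, 6.40% upward and 6.45% downward. In the macrophages 46.8% of 30092 probes were called, 20.9% upward and 25.9% downward; this stands beside the caveolin ratios as the background of a contrast that served to choose them. All 4 probes passed the filter on dim probes in each cell type.

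**Figure D2:**
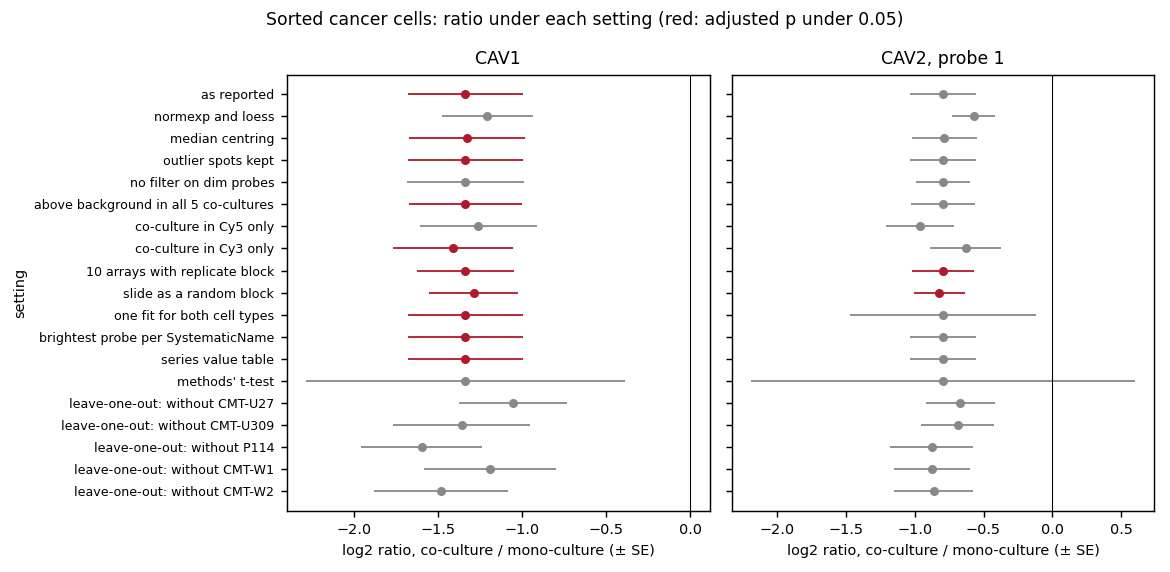
Log2 ratio in the sorted cancer cells (horizontal axis, ± SE) of CAV1 and of CAV2 probe 1 under each setting (vertical axis), with red where the adjusted p was under 0.05. All values lie below 0, from -1.60 to -1.05 for CAV1 and from -0.96 to -0.57 for CAV2; CAV1 was called in 9 of 18 alternative settings and CAV2 in 2 of 18.

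The levels of CAV1 in the 4 kinds of culture fell into a high set of 3 and a low one. Levels are log2 normalized signals of one probe, so they are compared between cultures and not between probes. In mono-cultured cancer cells CAV1 was at 12.87 in CMT-U27, 15.13 in CMT-U309, 15.32 in P114, 13.58 in CMT-W1 and 14.29 in CMT-W2, with a mean of 14.24 ± 1.03 (SD, n = 5). In co-cultured cancer cells it was at 10.41, 13.89, 15.03, 11.66 and 13.53 in that order of lines (mean 12.90 ± 1.85). Every cancer cell array, mono-culture or co-culture, had CAV1 well above background.

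The mean CAV1 level of the sorted macrophages lay near that of the sorted cancer cells, but the lines differed widely. Their CAV1 levels were 11.83 with CMT-U27, 13.44 with CMT-U309, 14.95 with P114, 10.29 with CMT-W1 and 10.82 with CMT-W2 (mean 12.27 ± 1.92). The difference from the cancer cells sorted from the same co-culture was -0.64 ± 1.53 (SD, n = 5). It ranged from -2.71 with CMT-W2 to 1.42 with CMT-U27, the only line in which the macrophages were higher, and it was not tested. As a percent of those cancer cells, the macrophages stood at 268% with CMT-U27, 73.2% with CMT-U309 and 94.7% with P114. With CMT-W1 and CMT-W2 they stood at 38.8% and 15.2%. P114, the line with the most CAV1 alone, also had the highest level in its co-cultured macrophages.

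Mono-cultured macrophages were the lowest of the 4 kinds, with a mean of 6.43 ± 2.48 (SD, n = 5). They were also the most uneven. CAV1 was at 8.42 in the mono-culture paired with CMT-U309 and at 9.74 in that paired with P114, both above background, against 5.03, 4.16 and 4.82 in those paired with CMT-U27, CMT-W1 and CMT-W2. The 2 high values stood on the arrays whose co-culture channel was also the brightest for CAV1, and they lay 105-fold (CMT-U309) and 47.9-fold (P114) below the mono-cultured cancer cells of the line. Why the mono-cultured macrophages differed was not tested.

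CAV2 probe 1 followed a similar order. In mono-cultured cancer cells it was at 10.98 in CMT-U27, 13.47 in CMT-U309, 14.26 in P114, 8.74 in CMT-W1 and 12.65 in CMT-W2 (mean 12.02 ± 2.20), and in co-cultured cancer cells at 9.68, 12.25, 13.79, 8.27 and 12.13 (mean 11.23 ± 2.21). In co-cultured macrophages it was at 11.41, 11.78, 14.09, 7.13 and 9.02 (mean 10.69 ± 2.68), and in mono-cultured macrophages at 6.65, 6.76, 7.09, 6.67 and 6.32 (mean 6.70 ± 0.28). CMT-W1 cancer cells had the least signal on this probe of all 5 lines, and the macrophages cultured with them had the least among the co-cultured macrophages. The difference between macrophages and cancer cells of one co-culture was -0.54 ± 1.79 (SD, n = 5) and again ran from below 0 in CMT-W2 (-3.11) to above 0 in CMT-U27 (1.73).

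The low CMT-W1 signal was not shared by every CAV2 probe. On probe 3 mono-cultured CMT-W1 was at 11.27, within the 10.13 to 12.18 of the other lines, and its co-cultured macrophages were at 10.47, within 9.64 to 12.48. On probe 2 mono-cultured CMT-W1 was at 5.86, above background on 0 of 2 arrays, against 9.86 to 11.99 in the other lines. All 3 probes carry the same transcript name, and where they lie in the transcript was not analysed here.

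**Figure D3:**
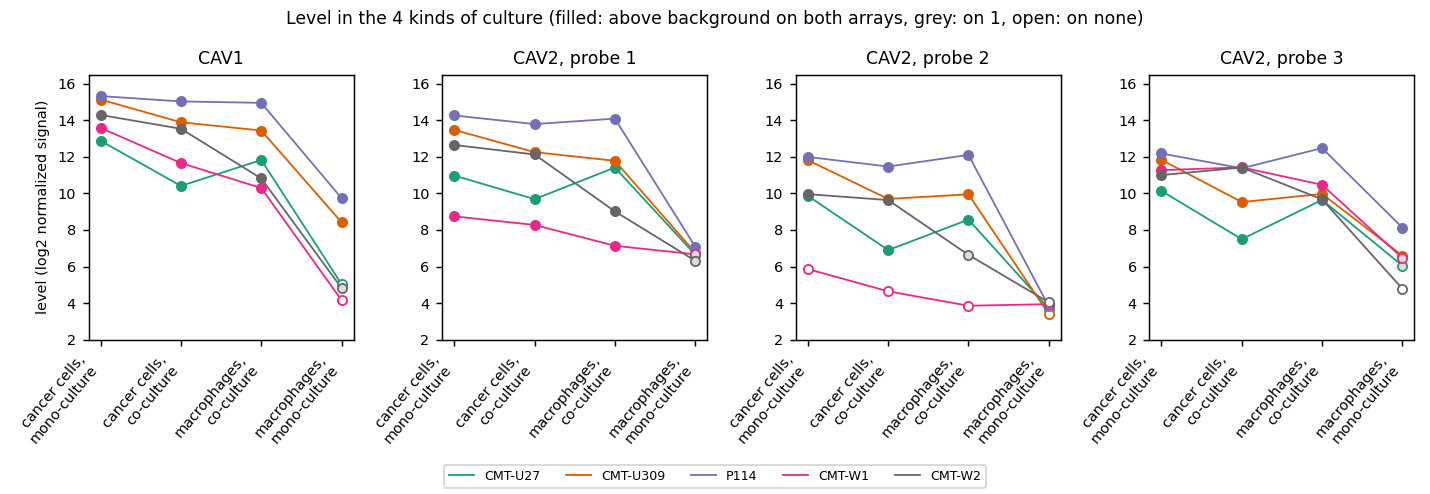
Level (vertical axis, log2 normalized signal, mean of the 2 arrays) in the 4 kinds of culture (horizontal axis), 1 panel per probe and 1 coloured line per cancer cell line; heights are not comparable between panels. For CAV1 the 3 kinds on the left lie between 10.29 and 15.32 and mono-cultured macrophages between 4.16 and 9.74, and in these 3 kinds CMT-W1 runs lowest on CAV2 probes 1 and 2 but not on probe 3.

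The caveolins were then set beside probes that mark cancer cells. For each line, these were probes at least 16-fold higher in mono-cultured cancer cells than in mono-cultured macrophages in the other 4 lines, which gave 362 to 493 probes without the caveolins. In the sorted macrophages the median of these probes stood at 107.4% of the level of the line's mono-cultured cancer cells with CMT-U27, 78.2% with CMT-U309, 89.4% with P114, 55.1% with CMT-W1 and 30.2% with CMT-W2. In macrophages grown alone it was between 2.98% and 5.56%. The median of the cancer-cell-specific probes was thus higher in sorted macrophages than in macrophages grown alone with each of the 5 lines. The low level in macrophages grown alone may follow from the choice of these probes, since the macrophage mono-cultures of the 5 lines may not be separate.

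CAV1 in the sorted macrophages stood at 48.4%, 30.9%, 77.3%, 10.2% and 9.04% of its level in the line's mono-cultured cancer cells, in the same order of lines. In each of the 5 co-cultures this was below the median of the cancer-cell-specific probes. CAV1 was low in macrophages grown alone. Both genes were chosen by their high macrophage ratios, so a high rank of these ratios follows from the choice. Between 5.25% (CMT-W2) and 27.9% (P114) of the cancer-cell-specific probes had a macrophage ratio at least as large as that of CAV1. These ranks use ratios without the bound, although CAV1 was above background on no mono-culture array with CMT-U27 or CMT-W1. With CMT-W2 it was above background on only 1 mono-culture array. CAV2 probe 1 in the sorted macrophages stood at 135.5%, 31.0%, 88.7%, 32.8% and 8.08% of its level in the line's mono-cultured cancer cells. This was above the median of the specific probes with CMT-U27 and below it with the other 4 lines. From 6.92% (P114) to 83.2% (CMT-W1) of the specific probes had a ratio at least as large as that of CAV2. The part of carried-over cancer cells or their RNA in the caveolin ratios was not tested.

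Probes that mark macrophages moved the other way. Their median in the sorted macrophages was 27.5% of mono-cultured macrophages with CMT-U27, 39.1% with CMT-U309, 11.02% with P114, 13.9% with CMT-W1 and 18.9% with CMT-W2. In the sorted cancer cells it was 78.5% in CMT-U27 and between 5.15% (CMT-W1) and 20.1% (CMT-U309) in the other lines, against 2.02% to 5.72% in cancer cells grown alone.

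In the sorted cancer cells, the cancer-cell-specific probes stood at 39.0% of the mono-culture in CMT-U27, 75.6% in CMT-U309, 84.9% in P114, 70.5% in CMT-W1 and 62.4% in CMT-W2. CAV1 stood at 18.1%, 42.2%, 81.7%, 26.4% and 59.3% in the same order, below that median in each line. The distance was wide in CMT-W1 and small in P114 and CMT-W2. CAV2 probe 1 stood at 40.8%, 43.0%, 72.2%, 72.2% and 69.7%. The share of cancer-cell-specific probes with a ratio as low as that of CAV1 or lower was 24.2% in CMT-U27, 36.7% in CMT-U309, 46.7% in P114, 19.9% in CMT-W1 and 47.5% in CMT-W2, and for CAV2 probe 1 it was 37.0% to 55.8%. What part the macrophage marker signal of the sorted cancer cells had in the fall of CAV1 was not tested.

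**Figure D4:**
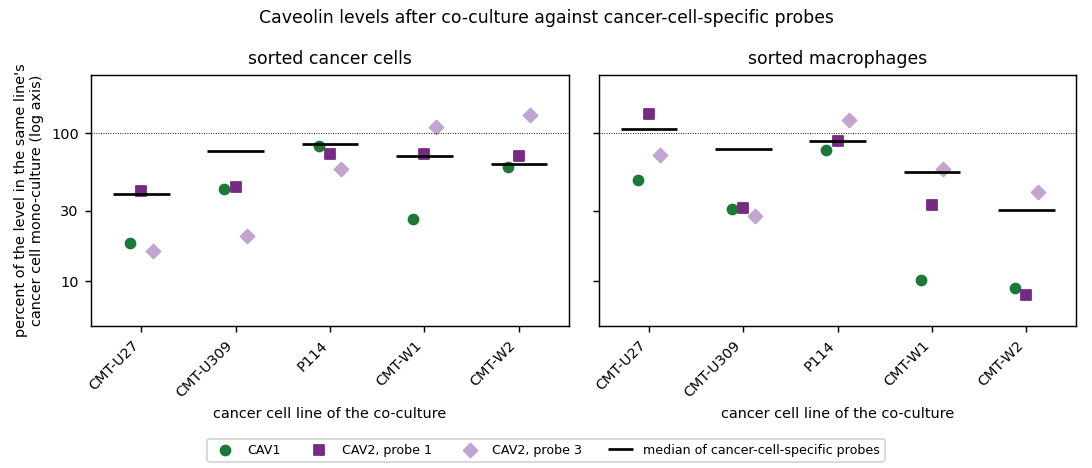
Level after co-culture as a percent of the same line's mono-cultured cancer cells (vertical log axis) in sorted cancer cells (left) and sorted macrophages (right) for the 5 lines (horizontal axis), for CAV1 and CAV2 probes 1 and 3, with the median of the cancer-cell-specific probes as a black bar. CAV1 lies below the bar in all 5 lines in each panel, at 9.04% to 77.3% in macrophages and 18.1% to 81.7% in cancer cells.

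CAV1 and CAV2 shared the sign of their ratio in most samples. CAV1 and CAV2 probe 1 had the same sign in 5 of 5 cancer cell samples and in 5 of 5 macrophage samples. CAV1 and probe 3 had the same sign in 3 of 5 cancer cell samples and 5 of 5 macrophage samples, and CAV1 and probe 2 in 5 of 5 and 4 of 5. The sizes differed more. In macrophages the ratio of CAV1 minus that of probe 1 was 2.03 with CMT-U27, 0.00 with CMT-U309, -1.79 with P114, 5.67 with CMT-W1 and 3.30 with CMT-W2, so in P114 CAV2 had the larger ratio and in 3 lines CAV1 had. The line with the largest CAV1 ratio was CMT-U27 and that with the largest CAV2 ratio on probe 1 was P114. In cancer cells the same difference ran from -1.45 in CMT-W1 to 0.18 in P114, with a mean of -0.54 ± 0.73 (SD, n = 5).

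The genes whose pattern was most like that of CAV1 were sought among 743 genes with a symbol tested in each cell type. By the root mean square difference over the 10 ratios, the nearest included SERPINH1, a collagen chaperone (1.08 log2 units), MYC, a transcription factor of growth (1.17), FZD6, a Wnt receptor (1.72), and ABCC5, an efflux transporter (1.90). CAV2 probe 1 came 14th, at 2.32, and probe 3 would have come 4th, at 1.63. The mean macrophage ratios of these 4 genes were 4.58 to 5.77. Their mean cancer cell ratios were -1.03 to 0.89, so ABCC5 was above 0 where CAV1 was below it.

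Over the 20 levels (5 lines in 4 kinds of culture) the highest Pearson correlations with CAV1 were those of SERPINH1 (r = 0.96), FZD6 (0.94), DZIP1, a cilium assembly gene (0.90), PAX6, a transcription factor (0.89), and CAV2 probe 1 (0.88). In place of probe 1, CAV2 probe 3 would have come 3rd (0.91) and probe 2 13th (0.84). The genes nearest to CAV2 probe 1 in their ratios included FZD6 (1.00 log2 units), BMPR1A, a BMP receptor (1.38), PDGFA, a growth factor (1.48), and SNAI2, a transcription factor of mesenchymal cells (1.51). Its levels correlated most with SRP72, a subunit of the signal recognition particle (0.93), PDGFA (0.93), SNAI2 (0.92), FZD6 (0.92) and DZIP1 (0.91). The cultures of one line share arrays and most of this pattern lies between mono-cultured macrophages and the rest, so these values describe likeness only.

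Of 23 genes listed for the coat and neck of caveolae, only 2 were among the named probes. These were DNM1, a dynamin that cuts vesicle necks, and STOM, a membrane scaffold protein. In the cancer cells neither passed limma's test, with log2 ratios of 0.17 ± 0.44 for DNM1 and 0.21 ± 2.01 for STOM (SD, n = 5; adjusted p 0.668 and 0.856; 0 of 2 at an unadjusted p under 0.05 and 0 by the methods' test). Over all probes tested in the cancer cells, 12.8% were called. In the macrophages 2 of 2 fell, beside 25.9% of all probes called downward there. The ratios were -0.92 ± 0.66 for DNM1 and -3.28 ± 1.23 for STOM, opposite in sign to the caveolin ratios there. The cavins, EHD proteins and pacsins had no named probe and were not analysed here, so DNM1 and STOM do not stand for the coat.

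Of 15 named proteins known to bind caveolin-1 or sit in caveolae, 11 were tested. In the cancer cells 1 rose and 2 fell on their brightest probes, 3 of 11 beside 12.8% of all probes tested, with a median log2 ratio of -0.22 beside -0.03. Dimmer probes of NOS3 (-1.43) and CTNNB1 (-1.0 and -1.13) were also called downward there. The methods' test, as rebuilt here without pairing, called none of the listed genes in the cancer cells, in this or any other list. The paper itself reports several of the listed genes as up-regulated in co-cultured cancer cells, among them CD163, C5AR1, CTSS and NPC2. The rebuilt test therefore does not stand for the paper's own result. PTGS2, the inducible prostaglandin synthase, rose by 7.17 ± 2.21 and was up in 5 of 5 lines. The receptors PDGFRB, for PDGF, and BDKRB2, for bradykinin, fell, with -1.25 ± 0.83 and -1.0 ± 0.26 (SD, n = 5; adjusted p 0.0478 and 0.0256), though the other tested probe of PDGFRB did not pass (-0.33). In the macrophages 1 rose and 6 fell, 7 of 11 beside 46.8% of all probes called and 25.9% called downward, with a median of -0.74 beside -0.14 over all probes.

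The largest macrophage changes among these partners were those of EDNRB, an endothelin receptor, with -4.10 ± 1.47, HMOX1, which degrades haem, with -4.01 ± 0.65, and ADRB1, an adrenergic receptor, with -2.49 ± 0.34. Among the tested partners, CTNNB1, the adhesion and Wnt signalling protein beta-catenin, was the one that rose, with 1.61 ± 0.83 on its brightest probe. Its other 3 tested probes did not pass (-0.15 to 0.83). The 4 that did not pass were EDNRA (0.14), NOS3 (-0.23, with -1.28 and called on another probe), PDGFRB (0.07) and PTGS2 (-0.63 ± 3.13). PTGS2 was above 0 in 2 macrophage samples and below it in 3. NOS1, YES1, KDR and SLC2A4 were on the array but not tested. YES1 and KDR were above background on no array of mono-cultured macrophages, which did not hold for the co-cultured ones. The paper reports YES1 as up-regulated in co-cultured macrophages, and also EGFR, which had no named probe here.

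Of 5 named genes of cholesterol handling, 3 were tested in cancer cells and 4 in macrophages. In the cancer cells 2 rose, beside 6.4% of all probes called upward. In the macrophages 3 fell, beside 25.9% of all probes called downward. NPC1 and NPC2, which move cholesterol out of lysosomes, rose in the cancer cells with 2.18 ± 0.96 and 2.34 ± 0.87 and fell in the macrophages with -1.13 ± 0.90 and -1.90 ± 1.07. CD36, a scavenger receptor, fell in the macrophages with -3.80 ± 2.20. SREBF1, a transcription factor of lipid synthesis, did not pass, with -0.52 ± 0.28 in cancer cells and -0.96 ± 0.87 in macrophages, where its dimmer probe read 0.77 and was called.

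Markers of cell types rich in caveolins did not all go with the caveolins. Fibroblast and smooth muscle markers called upward in the macrophages were 1 of 4 tested, beside 20.9% of all probes. Those called downward in the cancer cells were 1 of 5, beside 6.45% of all probes. Of the fibroblast and smooth muscle markers, BGN, a matrix proteoglycan, rose in the macrophages with 3.0 ± 0.66, while COL1A1 (0.37), COL1A2 (0.60) and PDGFRB (0.07) did not pass there on their brightest probes. The collagen probes disagreed, since 3 of 5 other probes of COL1A2 (3.78, 3.92 and 4.25) and 1 of 3 others of COL1A1 (3.11) were called upward in the macrophages. In the cancer cells PDGFRB fell and BGN (0.66), COL1A1 (0.32), COL1A2 (-0.05) and DCN (0.60) did not pass. The summed level of the 6 genes lay between 12.40 and 16.11 in sorted macrophages and between 12.57 and 13.27 in macrophages grown alone, and DES was above background on no macrophage array. Of the endothelial and fat cell markers, 3 of 5 tested fell in the macrophages, beside 25.9% of all probes, ADIPOQ with -1.02 (its other probe, at -0.50, did not pass), LEP with -0.91 and VWF with -0.66, and PPARG (0.98) and SELE (0.12) did not pass, although a dimmer probe of SELE did (4.49). In the cancer cells 0 of 5 passed limma's test, with 2 at an unadjusted p under 0.05 and 0 by the methods' test. The summed level of the 7 listed genes was 14.19 to 15.13 in sorted macrophages and 15.16 to 15.73 in macrophages grown alone, and VCAM1 was above background on no macrophage array.

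The macrophage markers moved strongly in each population. In the sorted cancer cells 13 of 14 rose by limma, beside 6.40% of all probes, and 0 were called by the methods' test. The median log2 ratio was 3.93, with the highest ratios in the protease CTSS (5.92 ± 0.70), the scavenger receptor CD163 (5.89 ± 2.18), the Fc receptor FCGR1A (5.47 ± 0.85) and the costimulatory CD80 (5.31 ± 1.84). CYBB did not pass, with 1.09 ± 1.41. In the sorted macrophages 13 of 14 fell, beside 25.9% of all probes, with a median of -3.51, among them the complement receptor C5AR1 (-5.73 ± 2.14), CD163 (-5.45 ± 2.85), the lectin CD209 (-4.93 ± 0.82) and FCGR1A (-3.97 ± 1.47), and CYBB (-1.34 ± 1.82) again did not pass.

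Epithelial markers were few. Of the 6 tested in each cell type, 1 fell in the cancer cells, beside 6.45% of all probes called downward. In the macrophages 2 rose and 1 fell, beside 20.9% of all probes called upward and 25.9% downward. In the cancer cells CLDN3, a tight junction claudin, fell with -1.93 ± 1.04, and ERBB2 (-0.60), MUC1 (-0.43), OCLN (-0.60), PGR (-0.06) and TJP1 (-0.16) did not pass. In the macrophages the tight junction genes OCLN and TJP1 rose with 2.51 ± 2.59 and 1.74 ± 1.22, OCLN from above background on 0 of 10 mono-culture arrays to 6 of 10 co-culture arrays, and ERBB2 fell with -0.74 ± 0.51, while CLDN3 (-0.23), MUC1 (0.60) and PGR (0.98) did not pass. The summed level of the 6 markers was 12.16 to 13.78 in sorted macrophages, where CMT-U27 and P114 were highest with 13.63 and 13.78.

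Of the lymphocyte markers, CD28 rose in the cancer cells with 2.31 ± 1.71, and CD4 (0.38) and CD8A (-0.73) did not pass. In the macrophages CD4 and CD8A fell with -1.26 and -0.64, and CD28 (-0.17), CTLA4 (0.61) and MS4A1 (2.52 ± 2.78) did not pass. Thus 1 of 3 tested rose in the cancer cells, beside 6.4% of all probes called upward. In the macrophages 2 of 5 fell, beside 25.9% of all probes called downward. The part of any of these markers in the caveolin ratios was not tested.

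The arrays lay on 5 slides. Only 1 slide held both cell types, macrophages of CMT-U27 and cancer cells of CMT-W1, and on it CAV1 read 6.79 and -1.92 and CAV2 probe 1 read 4.76 and -0.47. On the other slides the cell type and the slide cannot be told apart. With the slide as a random block, CAV1 in the cancer cells was -1.29 (adjusted p 0.0111) and CAV2 probe 1 was -0.82 (adjusted p 0.0164), so probe 1 passed the test in that setting. Probe 2 also passed in it (-1.46, adjusted p 0.0118), and probe 3 did not (adjusted p 0.0559). The cancer cell pairs lay on slides 1 (CMT-U27, P114), 2 (CMT-U309, CMT-W2) and 3 (CMT-W1), so the block rests on few pairs. With it the standard error of CAV1 went from 0.34 to 0.26.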

How the data were processed

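The authors hybridised amplified RNA of 20 dye-swapped samples to canine 4 x 44 K Agilent arrays and deposited the output of Agilent Feature Extraction (version 10.7.3.1). Its intensity columns hold linear spot signals, and the deposited log10 ratio is Cy5 over Cy3 after background correction and dye normalization. Other deposited columns hold marks (0 or 1) for spots above background, saturated or outlying. The series' value table equals this ratio up to sign. No caveolin spot was an outlier or saturated. Outlier spots were unevenly spread over the arrays. In CMT-U309 cancer cells, the Cy5-labelled co-culture array had 9870 of 43803 spots marked as outlying. Its co-culture channel had 96.3% of spots well above background, so these marks separate little there, and its median log2 ratio was -0.23. The matching CMT-W2 array had 1438 outlier spots, and the remaining arrays had 6 to 110. Without CMT-U309, CAV1 in the cancer cells was -1.36 (limma, adjusted p 0.0954).

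From the deposited log10 ratio, log2 ratios of co-culture over mono-culture were computed without outlier spots and averaged over repeated spots and over each dye-swap pair, which the labels call biological replicates and the methods a dye-swap. For each cell type, limma 3.58.1 under R 4.3.3 estimated the mean ratio of every probe well above background in either culture on both arrays of at least 3 of 5 co-cultures, with Benjamini-Hochberg adjustment over all probes tested and a threshold of 0.05. The model was tested on simulated data. Levels are log2 processed intensity after Aquantile normalization. A listed gene counted through its brightest tested probe. Transcript names were matched to symbols of the assembly UU_Cfam_GSD_1.0, so no coordinates are given. Python 3.11.15 with pandas 2.3.3 read the files.

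CAV1, CAV2 and the lists were chosen with earlier results of these data known. Named genes were all caveolin probes, the 5 nearest genes by each measure apart from genes not reported here, and of each list at most 4 called genes per cell type with the largest ratios and those not called where 5 or fewer. Alternatives were another background correction, centring, filters, single dyes, blocks, one fit for both cell types, the value table, the methods' test, other level scaling, another list threshold and each line left out. Promoter motifs were not analysed here.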

Additional observations from a re-analysis of the deposited data

Results flagged for a closer look

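CAV1 ran in opposite directions in the sorted populations, below 0 in all 5 cancer cell samples and above 0 in all 5 macrophage samples, and the mean macrophage ratio exceeded the mean cancer cell ratio by 7.17 on the log2 scale. CAV2 probe 1 did the same, with a difference of 4.78. These differences were not tested, since the genes were chosen on the macrophage ratio.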

How the results depend on the processing

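In the cancer cells the CAV1 ratio kept its sign in all 18 alternatives and its call in 9. The call was lost with normexp and loess (-1.21), without the filter on dim probes (-1.34), with the co-culture in Cy5 alone (-1.26) and by the methods' test (-1.34), where adjusted p was 0.0709, 0.0836, 0.0660 and 0.856, and when any line was left out (-1.60 to -1.05). CAV2 probe 2 passed with the slide as a random block (-1.46) alone. Probe 1 passed with the slide as a random block (-0.82) and in a fit of 10 arrays, and in none of the other 16 settings. The fit of 10 arrays had the cell line as a block and a term for the label's number within the pair. It gave -0.79 for probe 1 (limma, adjusted p 0.0319) and kept the call of CAV1 (-1.34, adjusted p 0.0110). The numbers of the labels mark the arrays of a dye-swap pair and pair no samples across groups. In the cancer cells the term for them speaks only to the dye. With normexp and loess the macrophage ratio was 3.48 for CAV1 and 2.28, 1.27 and 1.91 for CAV2 probes 1, 2 and 3. The count of called probes in cancer cells, 3817, became 73 with normexp and loess, 2513 without the filter, 2078 with Cy5 alone, 9000 with the slide as a block, 3 by the methods' test (1060 at their unadjusted threshold) and 664 (without P114) to 3177 (without CMT-W1) with a line left out, and was 981 without CMT-U27, 1249 without CMT-U309 and 2038 without CMT-W2; in macrophages, 14075 became 10495 to 16417. With a 4-fold list the macrophage-specific probes stood at 40.3% in sorted macrophages, against 18.9% (median of 5 lines), and level differences kept their sign with 75th percentile scaling. The cause of each change was not tested. Signals near background limit CAV1 and CAV2 in macrophages grown alone.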
